A study of Homo sapiens with 12 samples.

Results

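The genes described here are 59 protein-coding genes that were expressed in NCI-H226 cells and nearly silent in their TEAD inhibitor-resistant derivative. They were chosen from the libraries grown in vehicle: a mean of at least 2 CPM (the gene's count divided by the library's total count and multiplied by 1000000) in the sensitive line, and a mean in the resistant line of at most 10% of that. Of 58302 genes in the table, 19817 were annotated as protein-coding and 11080 of those reached 2 CPM in the sensitive line. Both conditions were met by 67 genes, of which 8 were left out by name (CYP17A1, HP, SAA1, SAA2, CDH1) or by the symbol starts COL, MMP, ADAM, KRT and ITG. The difference between the lines in vehicle therefore chose the members and is described below with no test.

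RNA sequencing was done on NCI-H226, a human mesothelioma cell line that the labels' growth protocol calls NF2 null, and on NCI-H226_CL3, grown out of it in concentrations of a TEAD small-molecule inhibitor that were raised from 0.25 to 3 µM. Each line received DMSO, the vehicle, or GNE-7883, a TEAD inhibitor, which gives the groups Sensitive_DMSO, Sensitive_GNE-7883, Resistant_DMSO and Resistant_GNE-7883 with 3 libraries each. Neither the dose nor the duration of this treatment is given in the labels, nor whether the 3 libraries of a group are separate cultures, and p-values measure the spread between these libraries only. With 1 resistant line profiled, what parts the lines below holds for this line alone.

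TEAD proteins are transcription factors that bind DNA and recruit the coactivators YAP and TAZ, which the Hippo kinases, acting downstream of the NF2 product merlin, keep out of the nucleus. In cells without merlin both coactivators tend to stay active and drive genes of growth, adhesion and the cytoskeleton. Mesothelial cells line the pleura, secrete lubricating and matrix glycoproteins, carry the large mucin MUC16 on their surface, and take part in innate defence of the pleural cavity.

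The 3 genes given as marks of the group differ in the letters at their transcription starts, and their promoter windows are shown for that contrast. Each runs from 250 bases before to 50 bases after the start in RefSeq on GRCh38.p14, is written 5′ to 3′ on the gene's strand, and has its CG dinucleotides in capitals. SFTPD (chr10:79949056-79949355, minus strand) has 1 CG and 46.7% G+C, CYTL1 (chr4:5019409-5019708, minus strand) has 14 and 67.7%, and CLSTN2 (chr3:139934935-139935234, plus strand) has 36 and 75.3%. For SFTPD the window lies inside the longer gene span of GENCODE 29, so another start is annotated upstream.
SFTPD: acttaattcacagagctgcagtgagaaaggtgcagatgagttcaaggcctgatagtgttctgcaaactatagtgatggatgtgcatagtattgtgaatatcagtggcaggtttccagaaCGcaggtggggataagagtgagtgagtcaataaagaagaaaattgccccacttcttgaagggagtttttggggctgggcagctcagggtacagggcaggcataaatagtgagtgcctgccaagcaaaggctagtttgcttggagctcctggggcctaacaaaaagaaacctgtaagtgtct
CYTL1: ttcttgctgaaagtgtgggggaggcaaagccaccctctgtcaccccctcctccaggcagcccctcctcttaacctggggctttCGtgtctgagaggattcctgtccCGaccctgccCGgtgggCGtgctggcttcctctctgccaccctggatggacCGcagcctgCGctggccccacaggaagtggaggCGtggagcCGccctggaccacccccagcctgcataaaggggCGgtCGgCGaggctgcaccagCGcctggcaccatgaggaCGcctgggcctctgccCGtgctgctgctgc
CLSTN2: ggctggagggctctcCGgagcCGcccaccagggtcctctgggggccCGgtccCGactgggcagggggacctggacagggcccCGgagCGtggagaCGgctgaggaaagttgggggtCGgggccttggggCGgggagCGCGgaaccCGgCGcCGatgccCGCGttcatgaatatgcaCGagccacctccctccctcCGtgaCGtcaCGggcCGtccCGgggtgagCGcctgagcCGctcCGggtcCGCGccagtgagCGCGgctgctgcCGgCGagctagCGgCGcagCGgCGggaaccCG
The windows thus range from almost no CG to a dense cluster of them, and the data hold no measure of DNA methylation to set beside them. A promoter entry was matched for 39 of the 59 genes, under 80%, so a comparison of CG content or motifs over the group is void and no share is given.

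Total counts per library ran from 31878934 to 46962645, so that 3 counts, the limit that a count of 0 allows, equal 0.0639 to 0.0941 CPM; such limits and the intervals below cover counting error only. Replicate 2 of Sensitive_DMSO stood apart: the SD over genes of its log2 deviation from the group mean was 0.182, against 0.0403 to 0.11 in the other 11 libraries. Among the 59 genes it was below both other replicates in 18 and above both in 35. CLSTN2 at 277, 175 and 294 CPM and PTPRQ at 41.8, 26.4 and 42.4 CPM in replicates 1 to 3 were wide departures, in the less frequent direction. SLC12A8 at 557, 579 and 556 CPM and TGM1 at 222, 236 and 217 CPM departed far less. Mitochondrial transcripts took 0.954% to 1.09% of counts in Sensitive_GNE-7883 and 0.522% to 0.693% in the other groups, and their part in the results was not tested. The labels give lung epithelium as tissue and mesothelioma as cell type. All 10 mesothelial markers examined reached 1 CPM in both sensitive groups and 9 did in both resistant groups. Their summed level was 3746 to 4118 CPM in Sensitive_DMSO, 4291 to 4493 in Sensitive_GNE-7883, 2062 to 2116 in Resistant_DMSO and 2411 to 2478 in Resistant_GNE-7883. Of 8 lung epithelial markers only 1 reached 1 CPM in each group, with a sum of 2.38 to 6.29 CPM, and blood markers summed to 0.354 to 6.3 CPM. The 4 endothelial markers summed to 48.1 to 61.4 CPM in Sensitive_DMSO, 176 to 191 in Sensitive_GNE-7883, 23.4 to 24.5 in Resistant_DMSO and 32.5 to 36 in Resistant_GNE-7883. In the same order of groups the 5 general epithelial markers summed to 5924 to 7276, 2943 to 2982, 2715 to 3319 and 2897 to 3332 CPM. The 4 fibroblast markers summed to 754 to 819, 459 to 526, 388 to 482 and 515 to 585 CPM, and the 4 squamous markers to 74.5 to 85.7, 28.1 to 31.7, 106 to 114 and 119 to 127 CPM. These sums moved with line or treatment, and their part in the results was not tested. The endothelial, epithelial, fibroblast and squamous sums rested on few genes and are not read as cell types. KDR held most of the endothelial sum (53, 180, 22 and 32.5 CPM on average in the same order of groups), with PECAM1 and CDH5 under 1 CPM throughout. KRT8 and KRT18 held most of the epithelial sum, with EPCAM under 1 CPM. COL1A1 and PDGFRB held most of the fibroblast sum, and KRT5 was the only squamous marker to reach 1 CPM.

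In vehicle the 59 genes took 0.346% to 0.373% of all counts in the sensitive line and 0.0185% to 0.0193% in the resistant line. In Sensitive_DMSO, 6 genes were above 100 CPM, 29 were between 10 and 100, and 24 were under 10, with a median of 14.4 CPM. In Resistant_DMSO the median was 0.683 CPM, 38 genes were under 1 CPM and 6 were at 5 CPM or more. The resistant level was 0% to 9.55% of the sensitive level with a median of 5.1%; 28 genes were at or below 5% and 5 at or below 1%. In DMSO 48.7% of all genes tested were called between the lines (24.4% lower), and nothing is read from that for genes that this contrast chose. In bulk RNA, fewer cells that express a gene and less RNA in each cell cannot be told apart.

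Near the ratio threshold stood CXCL14, SERPINB9 and RCAN2 at 9.55%, 8.51% and 8.39% of the sensitive level, with IL1R1, DOC2B and RARB just outside at 10%, 10.1% and 10.3%. Near the level threshold PSAPL1, TNNT2 and ANO2 were inside at 2.06, 2.11 and 2.74 CPM, with SH3BGRL and OTOF among the genes outside at 1.86 and 1.69 CPM. The edge of the group is thus one of degree. Leaving out each vehicle library in turn gave 59 to 62 genes.

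**Figure D1:**
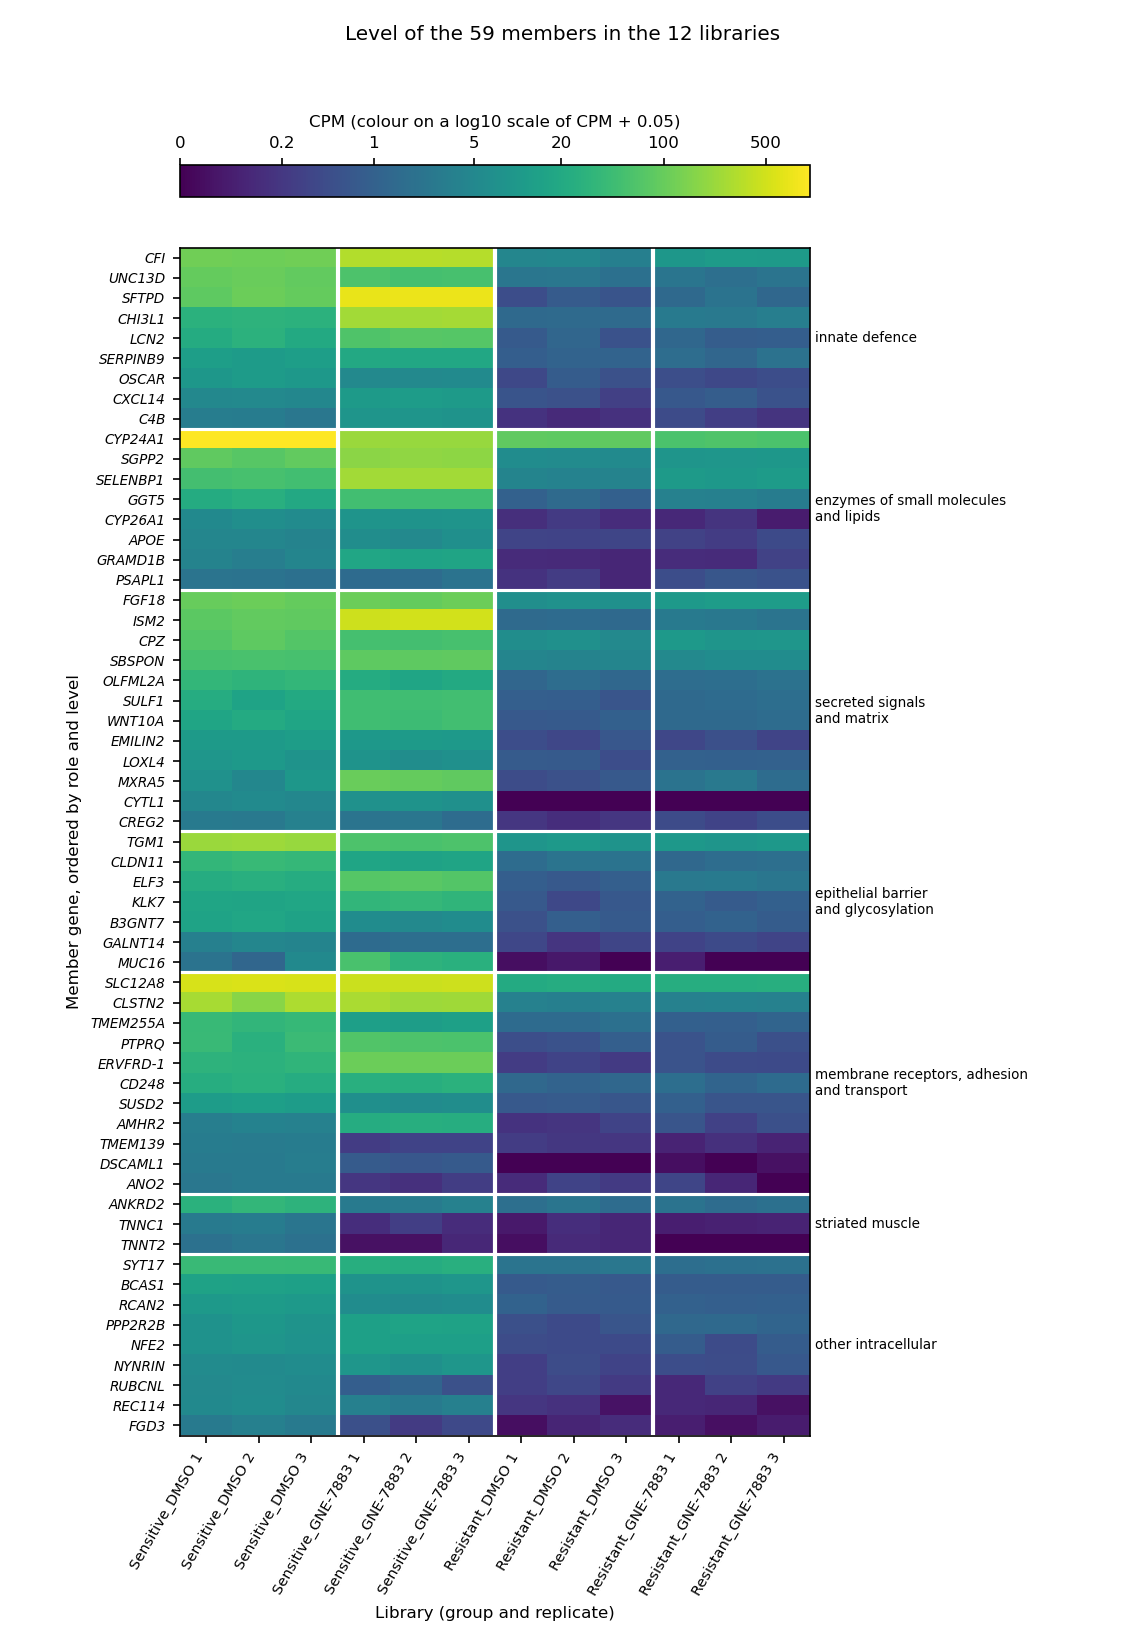
CPM of each of the 59 genes (rows, ordered by role and level) in each of the 12 libraries (columns), coloured on a log10 scale of CPM + 0.05. The 6 resistant libraries on the right are dark for nearly all genes, and the columns of Sensitive_GNE-7883 differ from those of Sensitive_DMSO in both directions.

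Per length of transcript (RPKM, reads scaled by transcript length and library total, as deposited by the authors), the highest of the 59 genes in Sensitive_DMSO was CYP24A1, the enzyme that inactivates the vitamin D hormone, at 338 RPKM. It was followed by the transporter SLC12A8 at 153, the cornified-envelope cross-linking enzyme TGM1 at 81, the lung collectin SFTPD at 74.8, the growth factor FGF18 at 50.6 and the complement regulator CFI at 48.8 RPKM. In Resistant_DMSO they were at 25.1, 5.95, 3.2, 0.491, 3.56 and 1.84 RPKM in the same order. The order of the genes was therefore not kept: SFTPD, above FGF18 and CFI in the sensitive line, was last of the 6 in the resistant line.

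The libraries under GNE-7883 were not used to choose the genes, and the line difference was tested in them. With edgeR's quasi-likelihood test over 18035 genes and Benjamini-Hochberg adjustment, 58 of the 59 genes were lower in resistant than in sensitive cells and 0 were higher. Among all genes tested 31.1% were lower and 30.7% higher, so 61.9% were called in that comparison. The median log2 difference was -4.21 for the 59 genes and -0.01 for all genes. In 58 genes every Sensitive_GNE-7883 library was above every Resistant_GNE-7883 library, as in 30.9% of all genes tested, and in 40 (67.8%) the resistant mean was at most 10% of the sensitive mean. Over all 11080 protein-coding genes of at least 2 CPM, the 59 included, 70 (0.632%) were at or below that ratio.

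CYTL1 (ENSG00000170891, chromosome 4, 5014586 to 5019472, GENCODE 29 on GRCh38), a small secreted cytokine-like protein, was at 4.83, 5.74 and 4.8 CPM in Sensitive_DMSO and at 7.5, 7.93 and 7.05 CPM in Sensitive_GNE-7883. All 6 resistant libraries had 0 counts. Against a limit of 3 counts over the group the sensitive level was at least 204-fold higher in DMSO and at least 310-fold higher under GNE-7883. It was the 1 gene of the 59 with no count in either resistant group. DSCAML1, a neuronal adhesion molecule of the immunoglobulin family, had 0 counts in Resistant_DMSO and 2 in Resistant_GNE-7883. Its sensitive level was at least 116-fold higher in DMSO and 47.1-fold higher under GNE-7883 (95% exact interval 12.6 to 395). MUC16, the mucin of mesothelial surfaces, had 3 counts in each resistant group and was 111-fold (37.8 to 543) and 1590-fold (544 to 7711) higher in the sensitive groups.

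SFTPD (ENSG00000133661, chromosome 10, 79937740 to 79982614), a secreted collectin that binds microbial sugars in the lung, was at 85, 107 and 95.5 CPM in Sensitive_DMSO and at 731, 738 and 758 CPM in Sensitive_GNE-7883. In Resistant_DMSO it was at 0.473, 0.819 and 0.596 CPM, and in Resistant_GNE-7883 at 1.41, 2.11 and 1.34 CPM. The 4 groups do not overlap, and under GNE-7883 the log2 difference between the lines was -8.91 ± 0.143 (standard error, adjusted p = 1.61e-16, edgeR). CLSTN2 (ENSG00000158258, chromosome 3, 139935185 to 140577397), a calsyntenin of synaptic membranes, was at 277, 175 and 294 CPM in Sensitive_DMSO and at 286, 235 and 246 CPM in Sensitive_GNE-7883. It was at 3.87, 3.59 and 3.76 CPM in Resistant_DMSO and at 3.88, 4.03 and 3.86 CPM in Resistant_GNE-7883. The lines were far apart and the treatments overlapped within each line, with a log2 difference between the lines of -6.10 ± 0.182 under GNE-7883 (adjusted p = 1.49e-13, edgeR).

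ANO2, a calcium-activated chloride channel, was the 1 gene not called. It was at 2.48, 2.8 and 2.94 CPM in Sensitive_DMSO, 0.189, 0.147 and 0.258 in Sensitive_GNE-7883, 0.118, 0.31 and 0.22 in Resistant_DMSO and 0.341, 0.096 and 0 in Resistant_GNE-7883. Under the drug the lines overlapped (log2 difference -0.40 ± 0.65, adjusted p = 0.617, edgeR). The value turned to 0.12 without replicate 3 of Resistant_GNE-7883, and was -1.94 with an adjusted p of 0.0357 in edgeR without replicate 1. TNNC1 and TNNT2 were called at adjusted p = 0.0377 and 0.0148 in edgeR, and each lost that call when single drug-treated libraries were left out. TNNC1 lost it without replicate 2 of Sensitive_GNE-7883 or any 1 of the Resistant_GNE-7883 libraries, in DESeq2 and without a low-count filter, and TNNT2 without replicate 3 of Sensitive_GNE-7883.

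GNE-7883 moved these genes in the sensitive line in both directions. Of the 59, 28 rose, 26 fell and 5 were not called (edgeR, adjusted over all genes), a share of 91.5% against 58.1% of all genes (29.8% higher, 28.4% lower). The Sensitive_DMSO libraries of this comparison also entered the choice of the genes, and nothing is read from this share or from the sizes that follow. The median log2 fold change was 0.06, against 0.02 for all genes, and the median of its size was 1.19 against 0.39. Changes of 2-fold or more were seen in 19 of the 28 that rose and 14 of the 26 that fell. In 55 of the 59 genes (93.2%) the 2 sensitive groups did not overlap in CPM, against 61.6% of all genes tested.

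In the resistant line 19 of the 59 genes rose, 3 fell and 37 were not called, a share of 37.3% against 9.22% of all genes (5.25% higher, 3.97% lower). The Resistant_DMSO libraries likewise entered the choice, through low levels. Nothing is therefore read from the share, its direction or the medians and overlaps that follow. The median log2 fold change was 0.30, against -0.00 for all genes, and the median of its size was 0.56 against 0.13. The 2 resistant groups did not overlap in 31 of the 59 genes (52.5%), against 30.2% of all genes tested. Single libraries moved the background of this comparison: 16.7% of all genes were called without replicate 2 of Sensitive_DMSO (22 of the 59 genes rose and 3 fell), and 5.36% without replicate 1 of Resistant_GNE-7883 (15 rose and 1 fell). The background was 4.7% without replicate 1 of Resistant_DMSO, 5.13% without its replicate 3 and 4.61% without replicate 3 of Resistant_GNE-7883. The count of genes that fell was 1 without replicate 3 of Resistant_DMSO, replicate 1 of Resistant_GNE-7883 or its replicate 2.

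Both directions of change were set side by side, since the 2 responses share no library. Of the 59 genes 16 rose in both lines, 3 fell in both (CYP24A1, TMEM255A and TNNT2) and 1 (CPZ) fell in sensitive and rose in resistant cells. Those called in both had the same direction in 19 of 20 (95%), against 1416 of 1514 (93.5%) over all genes. FGF18 and PSAPL1 were called in resistant cells alone, and CD248, CLSTN2 and EMILIN2 in neither line. The difference between the responses, tested as an interaction in edgeR, was called in 57.6% of the 59 genes, 25 higher and 9 lower in resistant cells, against 35.7% of all genes (19% higher, 16.7% lower). Both DMSO groups of that contrast entered the choice of the genes, and nothing is read from the share or its direction. Of the 26 genes that fell in sensitive cells, the interaction test called 23 toward a higher change in resistant cells. They include CPZ, which rose there, and DSCAML1, with 0 and 2 counts in the resistant groups. In Resistant_DMSO 16 of these 26 were under 1 CPM, as were 20 of the 28 that rose in sensitive cells. The choice of the genes set low levels in that group for all 59, which left little room for a fall, so nothing is read from the 23 of 26.

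**Figure D2:**
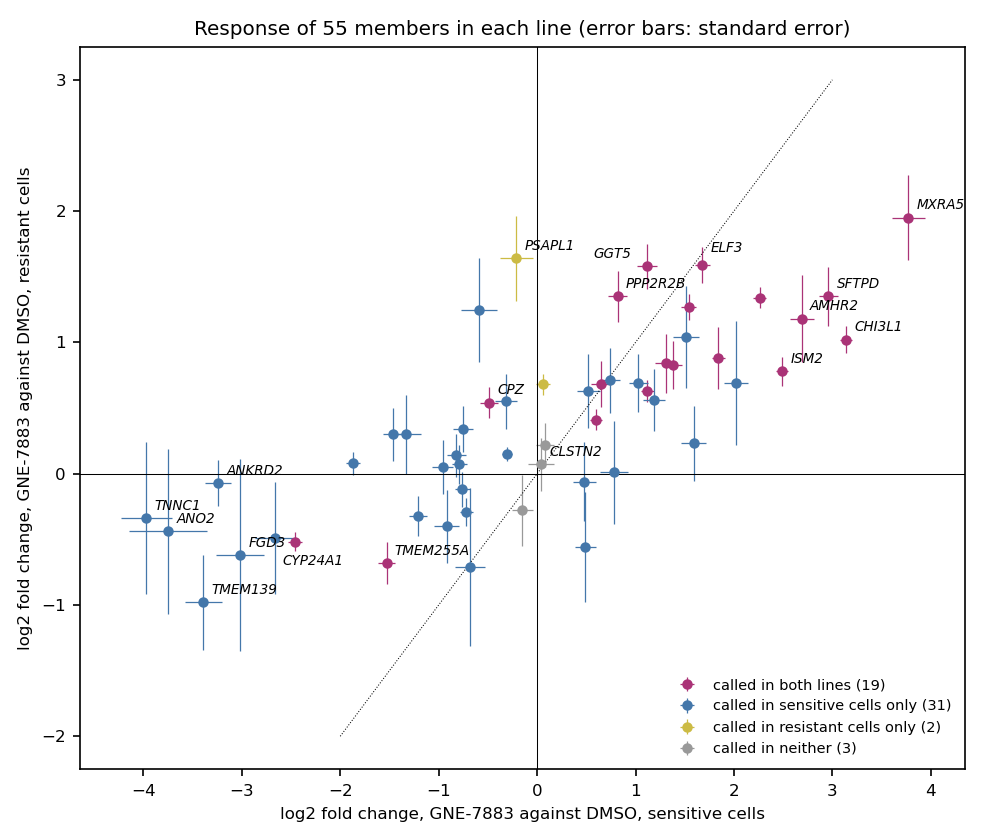
Log2 fold change of GNE-7883 against DMSO in sensitive cells (horizontal) and in resistant cells (vertical) for 55 of the 59 genes, with standard errors from edgeR; the 4 genes with 3 counts or fewer in a resistant group (CYTL1, DSCAML1, MUC16, TNNT2) are not drawn. The dotted line marks equal responses; 19 of the plotted genes were called in both lines and 31 in sensitive cells only, and most points on the left lie closer to the horizontal zero line than to the dotted line.

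The genes were put by hand into 7 groups of function after they were known, and no trait of a group is read from its counts. Of all 59, 28 rose and 26 fell in sensitive cells (29.8% and 28.4% of all genes tested). In resistant cells 19 rose and 3 fell (5.25% and 3.97% of all genes tested). Innate defence held 9 genes, of which 7 rose and 2 (UNC13D, OSCAR) fell in sensitive cells and 4 rose in resistant cells. All 9 were lower in the resistant line under GNE-7883, as were 58 of the 59 and 31.1% of all genes tested. SFTPD rose by a log2 fold change of 2.96 ± 0.0997 in sensitive cells (adjusted p = 1.89e-12, edgeR) and of 1.35 ± 0.225 in resistant cells (adjusted p = 0.00125). CHI3L1, a chitinase-like protein that binds chitin without cutting it, was at 28, 30.1 and 28.5 CPM in Sensitive_DMSO and at 250, 256 and 259 in Sensitive_GNE-7883. It was at 1.44, 1.51 and 1.47 CPM in Resistant_DMSO and at 2.96, 2.69 and 3.36 in Resistant_GNE-7883. It thus rose in both lines, with log2 fold changes of 3.14 ± 0.0625 and 1.02 ± 0.104 (adjusted p = 1.63e-14 and 1.50e-05, edgeR), and remained below its untreated sensitive level in every resistant library.

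CFI, which with cofactors cleaves complement C3b and C4b, rose from 115 ± 3.16 to 336 ± 10.3 CPM (SD, n = 3) in sensitive and from 4.34 ± 0.693 to 10.6 ± 1.13 CPM in resistant cells. Its log2 fold changes were 1.54 and 1.27, with a difference of -0.27 ± 0.127 that was not called (adjusted p = 0.105, edgeR). LCN2, which binds bacterial siderophores, was at 22.5, 28.7 and 20.2 CPM in Sensitive_DMSO and 66.1, 77.3 and 72 in Sensitive_GNE-7883, and rose there (1.59 ± 0.13, adjusted p = 3.55e-08, edgeR). In resistant cells it was at 0.78, 1.26 and 0.565 CPM with DMSO and 1.32, 0.888 and 0.923 with the drug, groups that overlap. C4B, a complement protein, rose in sensitive cells from 2.97 to 8.49 CPM, but its near-identical copy C4A was at 3.13 and 8.17 CPM and the split of reads between them is uncertain. SERPINB9, an inhibitor of granzyme B, rose in both lines, and its call in resistant cells was lost without replicate 1 of Resistant_DMSO or replicates 1 or 3 of Resistant_GNE-7883 (adjusted p up to 0.114, edgeR). UNC13D, which primes secretory granules for release, fell in sensitive cells from 97.3 ± 5.1 to 57.4 ± 3.81 CPM and was at 2.25 ± 0.35 and 2.1 ± 0.267 CPM in resistant cells (SD, n = 3).

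Enzymes and carriers of small molecules and lipids numbered 8, with 6 that rose and 1 that fell in sensitive cells and 4 that rose and 1 that fell in resistant cells. CYP24A1 was at 1261, 1043 and 1293 CPM in Sensitive_DMSO and at 225, 214 and 213 in Sensitive_GNE-7883. It was at 90.3, 87 and 89.2 CPM in Resistant_DMSO and at 60.1, 65.6 and 60.6 in Resistant_GNE-7883. It fell in both lines, by 2.46 on the log2 scale in sensitive cells (standard error 0.0744, adjusted p = 5.12e-13, edgeR) and by 0.52 in resistant cells (0.0727, adjusted p = 2.65e-04). SELENBP1, a methanethiol oxidase, was at 51.3, 56.8 and 50.8 CPM in Sensitive_DMSO and at 252, 257 and 251 in Sensitive_GNE-7883. It was at 4.39, 4.03 and 4.2 CPM in Resistant_DMSO and at 11.1, 9.65 and 11.2 in Resistant_GNE-7883, so all 4 groups were separate. GGT5, which cleaves glutathione conjugates, was at 21.9, 26.1 and 19.5 CPM in Sensitive_DMSO and 50.1, 48.8 and 47.2 in Sensitive_GNE-7883, and at 1.02, 1.48 and 0.972 CPM and then 3.77, 3.67 and 3.11 in resistant cells. Its log2 fold change was 1.12 ± 0.101 in sensitive and 1.58 ± 0.17 in resistant cells, with a difference of 0.47 ± 0.2 that was not called (adjusted p = 0.083, edgeR) but became called without a low-count filter and without replicate 3 of Sensitive_DMSO, 2 of Resistant_DMSO or 3 of Resistant_GNE-7883. SGPP2, a phosphatase of sphingosine phosphate, rose in both lines, by less in resistant cells (difference -0.49 ± 0.107, adjusted p = 0.00215, edgeR).

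PSAPL1, a prosaposin-like gene, was at 2.19, 2.13 and 1.86 CPM and then 1.57, 1.62 and 2.14 CPM in the sensitive groups, which overlap. It was at 0.165, 0.243 and 0.0941 CPM in Resistant_DMSO and at 0.468, 0.648 and 0.56 in Resistant_GNE-7883, a log2 rise of 1.64 ± 0.323 (adjusted p = 0.00423, edgeR). It lies within SORCS2 on the other strand, which was at 8.63 and 13.4 CPM in the resistant groups, and the library kit does not mark strand, so its counts are uncertain. CYP26A1, which breaks down retinoic acid, APOE, a lipid carrier, and GRAMD1B, a sterol transfer protein, rose in sensitive cells (log2 fold changes 0.49, 0.48 and 2.02). None of the 3 was called in resistant cells (-0.56 ± 0.421, -0.06 ± 0.3 and 0.69 ± 0.472), where they were at 0.108 to 0.329 CPM on average in both groups, and the differences between the responses were not called; that of GRAMD1B became called in DESeq2 and without replicate 3 of Sensitive_DMSO or of Resistant_GNE-7883.

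Secreted signals and matrix proteins were the largest group with 12 genes: 6 rose and 4 fell in sensitive cells, and 7 rose and 0 fell in resistant cells. MXRA5, a matrix proteoglycan-like protein, was at 7.42, 4.88 and 9.25 CPM in Sensitive_DMSO and at 104, 97.7 and 90.7 in Sensitive_GNE-7883. It was at 0.449, 0.531 and 0.753 CPM in Resistant_DMSO and at 2.13, 2.74 and 1.62 in Resistant_GNE-7883. Its log2 rise of 3.77 ± 0.169 in sensitive cells and 1.95 ± 0.324 in resistant cells (adjusted p = 3.70e-11 and 0.00121, edgeR) was the largest called rise among the 59 genes in each line, with that of MUC16 in sensitive cells (3.75 ± 0.368) within its error. ISM2, a secreted isthmin, was at 83.7, 93.4 and 87.9 CPM in Sensitive_DMSO and at 471, 510 and 505 in Sensitive_GNE-7883. It was at 1.46, 1.53 and 1.44 CPM in Resistant_DMSO and at 2.77, 2.57 and 2.24 in Resistant_GNE-7883. The groups did not overlap, and it rose by log2 fold changes of 2.49 ± 0.0623 and 0.78 ± 0.111 (adjusted p = 8.69e-14 and 3.28e-04, edgeR).

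FGF18, a growth factor of bone and lung development, was at 98.3, 108 and 94.7 CPM in Sensitive_DMSO and 107, 97.3 and 110 in Sensitive_GNE-7883, which overlap. In resistant cells it went from 6.62, 7.33 and 7.25 to 10.5, 11.7 and 11.7 CPM, a log2 rise of 0.68 ± 0.0817 (adjusted p = 6.98e-05, edgeR), and the responses differed (0.61 ± 0.105, adjusted p = 2.86e-04). CPZ, a carboxypeptidase with a frizzled-like domain, was at 70, 87.2 and 69.9 CPM in Sensitive_DMSO and 53.1, 51.8 and 56.4 in Sensitive_GNE-7883, a fall. It was at 6.47, 7.08 and 5.27 CPM in Resistant_DMSO and 10.1, 8.54 and 8.95 in Resistant_GNE-7883, a rise, and the responses differed by 1.03 ± 0.151 (adjusted p = 6.74e-05, edgeR). WNT10A, a Wnt ligand, and SULF1, which removes sulfates from heparan sulfate, rose in both lines, with log2 fold changes of 1.38 and 1.31 in sensitive cells and 0.83 and 0.84 in resistant cells. For SULF1 the resistant call was lost without any 1 of the 6 resistant libraries (adjusted p up to 0.109, edgeR), while for WNT10A the highest such adjusted p was 0.0466. CREG2, LOXL4 and OLFML2A fell in sensitive cells and were not called in resistant cells, where CREG2 (1.25 ± 0.396, adjusted p = 0.0623, edgeR) became called as higher in DESeq2, without a low-count filter, in the fit of 6 libraries and without replicate 2 or 3 of Sensitive_DMSO. For LOXL4, a lysyl oxidase that cross-links collagen and elastin, the sensitive call was lost without replicates 1 or 2 of Sensitive_DMSO or 2 or 3 of Sensitive_GNE-7883 (adjusted p up to 0.0954, edgeR). For CREG2 it was lost without replicate 3 of either sensitive group (adjusted p up to 0.0665, edgeR).

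**Figure D3:**
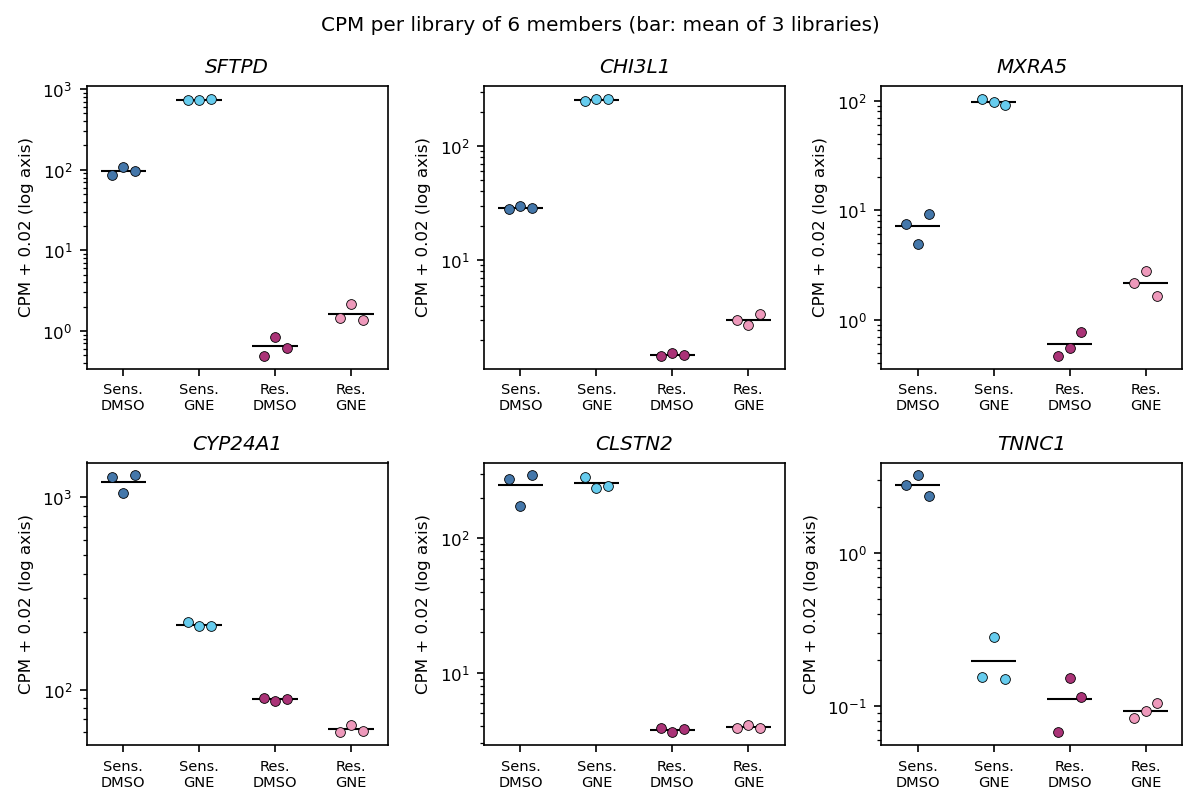
CPM + 0.02 on a log axis in each of the 12 libraries for SFTPD, CHI3L1, MXRA5, CYP24A1, CLSTN2 and TNNC1; points are libraries and bars the mean of 3. The top row shows genes that rose under GNE-7883 in both lines, CYP24A1 fell in both, and CLSTN2 stayed at 249 and 256 CPM on average in the sensitive groups. TNNC1 was at 0.176 CPM on average in Sensitive_GNE-7883 and at 0.0733 CPM in Resistant_GNE-7883.

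Genes of the epithelial barrier and of glycosylation numbered 7: 3 rose and 4 fell in sensitive cells, and 1 rose in resistant cells. MUC16 was at 2.1, 1.24 and 5.41 CPM in Sensitive_DMSO and at 57.7, 30.1 and 27.1 in Sensitive_GNE-7883, and rose there (3.75 ± 0.368, adjusted p = 3.06e-07, edgeR). The replicates of both groups were spread widely, and the groups did not overlap. ELF3, an epithelial transcription factor of the ETS family, was at 22.7, 25.3 and 22.6 CPM in Sensitive_DMSO, 73.6, 80.8 and 71.3 in Sensitive_GNE-7883, 0.921, 0.753 and 0.941 in Resistant_DMSO and 2.64, 2.81 and 2.38 in Resistant_GNE-7883. It rose by 1.68 ± 0.072 and 1.59 ± 0.137 on the log2 scale (adjusted p = 2.45e-11 and 2.57e-06, edgeR), and the difference of -0.09 ± 0.168 was not called (adjusted p = 0.768). TGM1 was at 222, 236 and 217 CPM in Sensitive_DMSO and at 63.5, 58.4 and 62.4 in Sensitive_GNE-7883. It was at 8.6, 10.2 and 7.9 CPM in Resistant_DMSO and 9.84, 8.86 and 9.74 in Resistant_GNE-7883, which overlap, so that a log2 change of -1.87 ± 0.0747 in sensitive cells stood beside 0.08 ± 0.0882 in resistant cells. KLK7, a protease that sheds skin cells, rose in sensitive cells from 16.8 ± 0.467 to 34.1 ± 2.22 CPM (SD, n = 3). The tight junction gene CLDN11 and the glycosyltransferase genes B3GNT7 and GALNT14 fell there by 1.21, 1.46 and 1.33 on the log2 scale, and none of these 4 was called in resistant cells. KLK7 had a log2 fold change of 0.69 ± 0.218 there (adjusted p = 0.0619, edgeR) and became called in DESeq2, without a low-count filter and without replicate 2 of Sensitive_DMSO.

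Membrane receptors, adhesion molecules and transporters numbered 11, of which 3 rose and 6 fell in sensitive cells. AMHR2, the receptor of anti-Müllerian hormone, was at 3.35, 4.04 and 3.76 CPM in Sensitive_DMSO and 23.4, 24.7 and 23.9 in Sensitive_GNE-7883. It was at 0.165, 0.177 and 0.314 CPM in Resistant_DMSO and 0.639, 0.288 and 0.504 in Resistant_GNE-7883, which overlap. Its rise was called in both lines (2.69 ± 0.119 and 1.18 ± 0.333, adjusted p = 3.21e-11 and 0.0362, edgeR), but in resistant cells the call was lost without replicates 1 or 2 of Resistant_DMSO or replicates 1 or 3 of Resistant_GNE-7883 (adjusted p up to 0.186). ERVFRD-1, an endogenous retroviral envelope gene that encodes a syncytin, rose from 30.5 ± 1.66 to 109 ± 1.08 CPM in sensitive cells and was at 0.255 ± 0.048 and 0.476 ± 0.0863 CPM in resistant cells (SD, n = 3). Its resistant call (adjusted p = 0.0467, edgeR) was lost without any 1 library of Sensitive_GNE-7883 or Resistant_GNE-7883 or replicates 1 or 3 of Resistant_DMSO (adjusted p up to 0.267), and it overlaps SMIM13 on the other strand, at 60.3 to 78.2 CPM. PTPRQ, a receptor-type phosphatase of hair cells, rose in sensitive cells (0.78 ± 0.144, adjusted p = 2.25e-04, edgeR).

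SLC12A8 fell slightly in sensitive cells, from 557, 579 and 556 to 444, 458 and 462 CPM (log2 -0.31 ± 0.05, adjusted p = 6.84e-05, edgeR). In resistant cells it was at 21.4, 23.4 and 21.1 CPM and then 24.3, 24.1 and 24.9 CPM, which do not overlap, although that change was not called (0.15 ± 0.0549, adjusted p = 0.104, edgeR) unless replicate 2 of Sensitive_DMSO or of Resistant_DMSO was left out. TMEM255A fell in both lines, from 37.6 ± 3.26 to 13 ± 0.757 CPM in sensitive cells and from 1.65 ± 0.171 to 1.03 ± 0.127 CPM in resistant cells (SD, n = 3). The resistant call was lost without replicate 3 of Resistant_DMSO or replicates 1 or 2 of Resistant_GNE-7883 (adjusted p up to 0.0656, edgeR). ANO2 and TMEM139 fell in sensitive cells by 3.75 and 3.39 on the log2 scale (standard errors 0.395 and 0.186) and ended at 0.198 and 0.292 CPM. CD248, a sialomucin of stromal cells, was at 24.7 ± 2.09 and 26 ± 1.55 CPM in sensitive and 1.27 ± 0.149 and 1.47 ± 0.292 CPM in resistant cells, with no call in either line. CLSTN2 became called in the sensitive response when replicate 2 of Sensitive_DMSO was left out.

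The 3 genes of striated muscle all fell in sensitive cells. TNNC1, a troponin that binds calcium, was at 2.77, 3.2 and 2.33 CPM in Sensitive_DMSO and at 0.135, 0.264 and 0.129 in Sensitive_GNE-7883. It was at 0.0473, 0.133 and 0.0941 CPM in Resistant_DMSO and at 0.0639, 0.072 and 0.0839 in Resistant_GNE-7883. Its log2 fold change in sensitive cells was -3.97 ± 0.261 (adjusted p = 2.94e-09, edgeR), with 19 counts over the 3 treated libraries. Under the drug TNNC1 was still lower in the resistant line, by a log2 difference of -1.30 ± 0.512 (adjusted p = 0.0377, edgeR). That call was lost in the alternatives named above. TNNT2, the cardiac troponin T gene, was at 1.99, 2.36 and 1.99 CPM in Sensitive_DMSO and at 0.0271, 0.0294 and 0.103 in Sensitive_GNE-7883 (-5.19 ± 0.371, adjusted p = 3.51e-08, edgeR). In resistant cells it had 9 counts with DMSO and 0 with the drug, at least 3.13-fold lower, and that call was lost when replicate 2 or 3 of Resistant_DMSO or any 1 library of Resistant_GNE-7883 was left out (adjusted p up to 0.105, edgeR). TNNT2 overlaps LAD1, which went from 2.63 to 0.0987 CPM in the sensitive groups, so the assignment of its reads is uncertain. ANKRD2, a muscle ankyrin-repeat protein, was at 28.4, 34.7 and 30.5 CPM in Sensitive_DMSO and 2.9, 3.06 and 3.9 in Sensitive_GNE-7883 (-3.24 ± 0.131, adjusted p = 1.12e-11, edgeR). It was at 1.82, 2.32 and 1.6 CPM in Resistant_DMSO and 2.09, 1.58 and 1.87 in Resistant_GNE-7883, which overlap.

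Of 9 other intracellular genes, 3 rose and 6 fell in sensitive cells and 1 rose in resistant cells. PPP2R2B, a regulatory subunit of protein phosphatase PP2A, rose in both lines, from 8.47 ± 0.935 to 15 ± 0.856 and from 0.523 ± 0.103 to 1.31 ± 0.142 CPM (SD, n = 3). The log2 fold changes of 0.82 and 1.35 gave a difference of 0.53 ± 0.217 that was not called (adjusted p = 0.0692, edgeR) but became called without replicate 3 of Resistant_DMSO or of Resistant_GNE-7883. NFE2, a transcription factor of platelet and red cell formation, and NYNRIN rose in sensitive cells by 0.74 and 0.52 on the log2 scale. FGD3 was at 2.79, 3.64 and 2.94 CPM in Sensitive_DMSO and 0.514, 0.235 and 0.388 in Sensitive_GNE-7883 (-3.02 ± 0.242, adjusted p = 3.00e-08, edgeR). RUBCNL, an autophagy regulator, and RCAN2, an inhibitor of calcineurin, fell by 2.66 and 0.82. REC114, a meiotic recombination gene that also fell, overlaps NPTN on the other strand, at 181 to 257 CPM.

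Resistant_GNE-7883 was below the untreated sensitive level in all 59 genes. They were chosen at 10% or less of that level in vehicle, so only a rise of 10-fold or more could have reached it. No conclusion on the drug is drawn from this. Resistant_GNE-7883 was at a median of 5.82% of Sensitive_DMSO; 43 genes were at or below 10% of it and 16 above. The highest were MXRA5 at 30.1%, PSAPL1 at 27.2%, SELENBP1 at 20.1%, GGT5 at 15.6%, PPP2R2B at 15.4% and CXCL14 at 14.5%. Of the 16 genes that rose in both lines, 8 rose by less in resistant cells by the interaction test: SFTPD, ISM2, SGPP2, SELENBP1, ERVFRD-1, CHI3L1, MXRA5 and AMHR2. For ERVFRD-1 that difference was not called without replicate 2 of Resistant_DMSO or of Resistant_GNE-7883, and for AMHR2 not without replicate 3 of Resistant_DMSO. For the other 8 the difference was not called with all libraries, and for 0 of the 16 was the rise in resistant cells called larger there. Over all genes tested 16.7% were called lower and 19% higher in resistant cells by that test. Both DMSO groups of it entered the choice of the genes, and nothing is read from these counts. Besides GGT5 and PPP2R2B, whose difference toward a larger rise in resistant cells became called without single libraries, WNT10A became called toward a smaller rise with RLE scaling, in DESeq2, with a filter of 1 CPM and without replicate 2 of either sensitive group, and CFI without replicate 3 of Resistant_DMSO. The summed share of counts of the 59 genes was 0.448% to 0.451% in Sensitive_GNE-7883 and 0.0202% to 0.0205% in Resistant_GNE-7883.

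By position the 59 genes were spread over 22 chromosomes, with 0 on chromosomes 21 and Y and at most 5 on 1 chromosome (chromosome 2). Within 1 Mb of another of the 59, start to start, lay 12 genes in 6 pairs. SUSD2 and GGT5 (chromosome 22, starts 24181259 and 24219654 in GENCODE 29 on GRCh38) were 38.4 kb apart, and BCAS1 and CYP24A1 (chromosome 20, starts 53936777 and 54153449) 217 kb, each with no expressed protein-coding gene between them. In sensitive cells SUSD2 fell while GGT5 rose, and BCAS1 and CYP24A1 both fell. TGM1 and NYNRIN on chromosome 14 were 150 kb apart with 5 expressed genes between them, whose median level in Resistant_GNE-7883 was 97% of that in Sensitive_GNE-7883. The pairs TNNT2 and ELF3 (649 kb, chromosome 1), ANKRD2 and LOXL4 (675 kb, chromosome 10) and AMHR2 and NFE2 (868 kb, chromosome 12) had 8, 7 and 14 expressed genes between them, with medians of 109%, 94.3% and 84.7%.

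**Figure D4:**
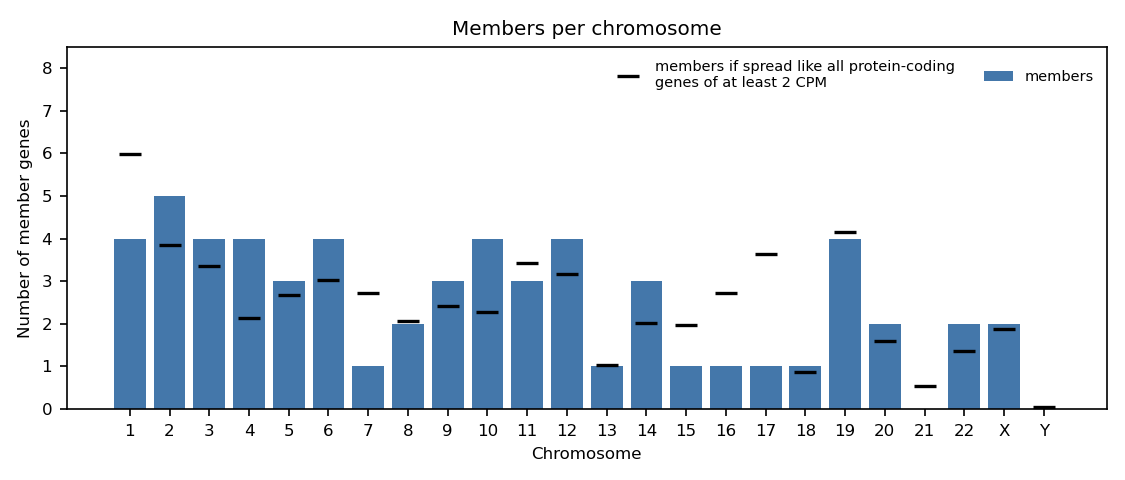
Number of the 59 genes on each chromosome (bars, from 0) and, as dashes, the number each would hold if the 59 were spread like the 11080 protein-coding genes of at least 2 CPM. Chromosome 2 holds 5 and chromosomes 21 and Y hold 0.

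The nearest expressed protein-coding genes on each side, 114 in all, had a median Resistant_DMSO level of 94.7% of Sensitive_DMSO, and 100 of them (87.7%) were between 50% and 200%. Among all 11021 expressed protein-coding genes outside the group the median was 106% and this share was 92.4%. Under GNE-7883 the median of the 114 neighbours was 96.8%, and 43.9% of them were lower and 31.6% higher in the resistant line. For the 11021 genes the median was 108%, with 32.7% lower and 38.4% higher. CYTL1, with no count in the resistant line, lay between MSX1, at 11.3 CPM in Sensitive_DMSO and 7.42 in Resistant_DMSO, and STK32B, at 2.11 and 2.1 CPM. Of the 114 neighbours 2 were at or below 20% under GNE-7883: KLK8 beside KLK7, at 8.16%, and C4A beside C4B, at 5.59%. Of the 11021 genes 127 were that low. HCN4 beside REC114 was at 22.1%, TMEM151A beside CD248 at 26.1% and SERPINB1 beside SERPINB9 at 27.8%. KLK6, on the other side of KLK7, and ZNF558 beside MUC16 were each at 31.5%. These low neighbours were named after their values were seen. Among the symbol starts of a fixed list, none held 3 or more of the 59: the most were 2 of 146 expressed TMEM genes and 2 of 10 CYP genes. Starts outside the list, such as that shared by TNNC1 and TNNT2, were not counted. The choice of genes had left out the COL, MMP, ADAM, KRT and ITG families and CYP17A1 beforehand, which limits that count.

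**Figure D5:**
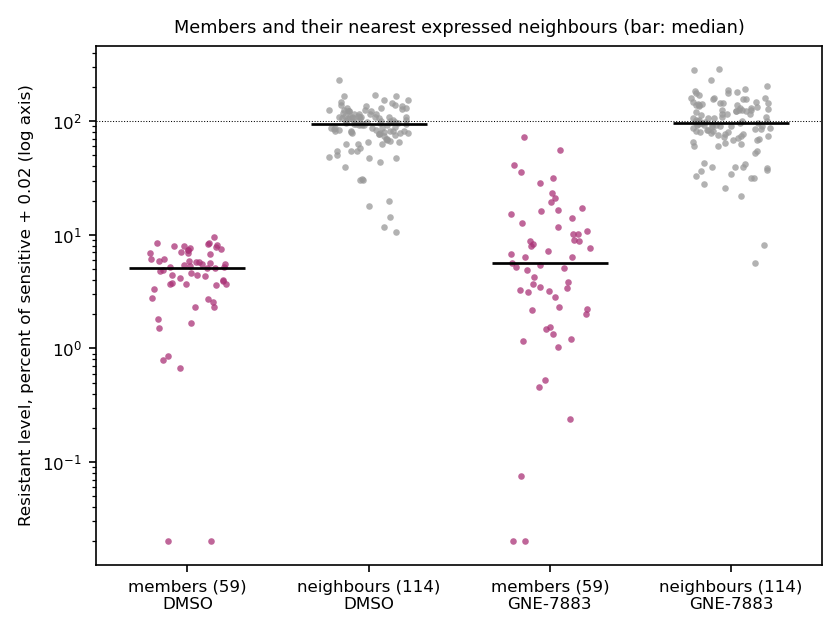
Level in the resistant line as a percent of the sensitive line (+ 0.02, log axis) for the 59 genes and their 114 nearest expressed neighbours, in DMSO and under GNE-7883; bars are medians. The DMSO values of the 59 genes chose them. The neighbours have medians of 94.7% and 96.8%, against 106% and 108% for all 11021 expressed protein-coding genes outside the group, which are not drawn.

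Values of related genes were set beside those of the 59. The other calsyntenins, CLSTN1 and CLSTN3, were at 207 and 130 CPM in Sensitive_DMSO and 153 and 80.1 CPM in Resistant_DMSO, so a loss of the size of CLSTN2's was not seen in them. Both were still lower in the resistant line, with log2 differences of -0.51 and -0.77 in DMSO and -0.76 and -1.32 under GNE-7883 (adjusted p at most 1.23e-06, edgeR). Of the 12 collectin and surfactant genes listed, 4 were tested. COLEC10 was higher in the resistant line under GNE-7883 (0.306 against 12 CPM, adjusted p = 1.02e-12, edgeR), while SFTPD, SFTPC and COLEC12 were lower, both of the latter at under 1 CPM in every group. None of the 22 canonical YAP/TEAD targets listed was among the 59 genes. Nothing is read from that, since the 59 are few among the 11080 protein-coding genes of at least 2 CPM. Of these 22 targets, 18 fell and 2 rose in sensitive cells, against 28.4% and 29.8% of all genes tested. In resistant cells 8 fell and 0 rose, against 3.97% and 5.25%. In the resistant line under GNE-7883, 18 were higher and 3 lower, against 30.7% and 31.1%. Of 30 genes for DNA methylation and repressive chromatin, 13 were higher and 13 lower in the resistant line under GNE-7883, where 30.7% and 31.1% of all genes were, with a median of -0.01. In DMSO 8 of them were higher and 9 lower, against 24.2% and 24.4% of all genes. Their part in the levels of the 59 genes was not tested.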

How the data were processed

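RNA of 12 libraries was sequenced as single-end reads of 50 bases from a kit that does not mark strand, per the labels' protocols. The authors deposited raw counts (whole reads per gene, unscaled) and a table of RPKM for the same libraries. GSNAP, GRCh38.p10 and limma appear in the submitters' processing notes, with no role stated, and the sources used here name no counting tool or annotation. In 12122 well-counted genes (50 counts or more), dividing counts by RPKM gave a gene factor times the library total (relative deviation at most 1.3e-08). Coordinates and biotypes came from GENCODE 29, which matched 58039 identifiers; the 263 without a match took up to 0.0167% of counts in any library.

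CPM was computed from the counts. Tests used edgeR 4.0.16 in R 4.3.3 on the deposited counts: TMM scaling, filterByExpr (18035 genes, all 59 included), a mean for each of the 4 groups (12 libraries, leaving 8 degrees of freedom), quasi-likelihood tests, two-sided, and Benjamini-Hochberg adjustment over all genes. Calls, and the words rose and fell, need an adjusted p below 0.05. The standard error is the fold change divided by the square root of the F statistic. The procedure was tested on simulated counts. Alternatives were RLE scaling, DESeq2 1.42.0, other filters, a replicate block, fits of 6 libraries and leaving out each library. The members and lists were chosen with earlier results of these data known. Named genes are the 3 given marks, the 10 highest by RPKM in Sensitive_DMSO, the 6 largest called changes in each direction of each response and of their difference, the 5 highest in Resistant_GNE-7883, those near another or near a threshold, list members and genes not called lower; others illustrate their group and were chosen after their values were seen.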

Additional observations from a re-analysis of the deposited data

Results flagged for a closer look

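The response to GNE-7883 differed between the lines, by the interaction test of edgeR (Benjamini-Hochberg over all genes), in 25 genes toward a higher and 9 toward a lower change in resistant cells, where 3 libraries per group were compared. Both DMSO groups of this contrast entered the choice of the genes, and nothing about direction is read from these counts. The largest differences toward a lower change were in CHI3L1 (-2.13, adjusted p = 6.39e-09), MXRA5 (-1.82, adjusted p = 0.0029), ISM2 (-1.71, adjusted p = 8.10e-08), SFTPD (-1.61, adjusted p = 2.25e-04), AMHR2 (-1.51, adjusted p = 0.00719) and LCN2 (-1.36, adjusted p = 0.00368), all of which rose in sensitive cells. AMHR2 was not called without replicate 3 of Resistant_DMSO (-1.18, adjusted p = 0.0594 in edgeR).

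Those toward a higher change were in TNNC1 (3.64, adjusted p = 0.00113, edgeR), ANO2 (3.31, adjusted p = 0.00504), ANKRD2 (3.17, adjusted p = 3.44e-08), TMEM139 (2.41, adjusted p = 7.67e-04) and FGD3 (2.40, adjusted p = 0.0477), all of which fell in sensitive cells. DSCAML1 had a fitted difference of 4.53 (adjusted p = 0.0394, edgeR), which rests on 0 and 2 counts in the resistant groups and depends on the prior count. DSCAML1 was not called in DESeq2 (3.74, adjusted p = 0.0521), and lost its call without any 1 library of Resistant_DMSO or replicates 1 or 3 of Resistant_GNE-7883 (adjusted p up to 0.133, edgeR). FGD3 lost its call without replicate 3 of Sensitive_DMSO, replicates 2 or 3 of Sensitive_GNE-7883, replicates 1 or 2 of Resistant_DMSO or replicates 1 or 3 of Resistant_GNE-7883 (adjusted p up to 0.191, edgeR), and ANO2 without replicate 1 of Resistant_GNE-7883 (1.78, adjusted p = 0.227, edgeR).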

How the results depend on the processing

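The number of members was 151 at a ratio of at most 20%, 28 at 5% and 122 with the same thresholds in the GNE-7883 libraries, and 6 of the 59 lay within 0.5 Mb of another. Leaving out each library gave, for the 59 genes, 57 to 58 lower in the resistant line under GNE-7883 (0 higher in any), 28 risen and 24 to 26 fallen in sensitive cells, 15 to 22 risen and 1 to 3 fallen in resistant cells, 22 to 25 higher and 8 to 10 lower differences of the responses, and 59 to 62 members. Genes called in all ran from 10394 to 12181, 9496 to 10603, 854 to 3060, 5634 to 7111 and, for the lines in DMSO, 7669 to 9059. For the resistant response they were 3060 without replicate 2 of Sensitive_DMSO, 861 and 950 without replicates 1 and 3 of Resistant_DMSO, and 984 and 854 without replicates 1 and 3 of Resistant_GNE-7883; the cause was not tested. ANO2 changed sign in the line difference under GNE-7883 without replicate 3 of Resistant_GNE-7883 (0.12, against -0.40) and was called without replicate 1 (-1.94). For the largest called changes of each comparison, the 3 given marks and ANO2, 624 of 652 alternatives kept direction and call, 26 lost the call, 1 gained it and 1 changed sign. Over all 59 genes, 67 calls were lost and 34 gained over 71 combinations of comparison and setting, 35 and 11 of them in the resistant response and 19 and 21 in the difference of the responses.

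Whether replicate numbers pair the samples was not settled, and correlations of same-numbered deviations ran from -0.70 to 0.66. Between the DMSO groups of the lines they were 0.03, 0.55 and 0.66 for replicates 1 to 3, and between the GNE-7883 groups 0.29, 0.41 and -0.00. Between the treatments they were 0.33, 0.04 and -0.38 in sensitive cells and -0.53, -0.70 and -0.16 in resistant cells. With a replicate block 17 of the 59 genes rose and 2 fell in resistant cells, with 28 and 26 in sensitive cells, 58 lower in the resistant line and 25 and 9 differences (FGD3 lost and GGT5 gained a call); 11050, 10305, 1372, 6211 and 8594 genes were called in the same order as above. Fits of 6 libraries left 5 and 12 of the 59 genes untested in the line difference under GNE-7883 and in the resistant response, and could not give the difference of responses. Depth limits the 4 genes with 3 counts or fewer in a resistant group.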
